A study of Mus musculus with 12 samples.

Results

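The miR-221 and miR-222 cluster was examined in small RNA sequencing of exosomes, the small vesicles that cells shed, collected from cultured mouse granulosa cells. Its members were the 4 entries of the count files named mmu-miR-221-3p, mmu-miR-221-5p, mmu-miR-222-3p and mmu-miR-222-5p, chosen by name out of 637 miRNA entries. All 4 reached the minimum of 10 counts summed over 12 libraries and so belonged to the 547 tested entries. The primary granulosa cells came from Kunming mice primed with pregnant mare serum gonadotropin, were kept for 24 h in exosome-free medium and were then treated for 48 h. The CON group received no addition, and the FAC group received ferric citrate at 100 μM as an iron load. The DFO group received ferric citrate at 100 μM together with the iron chelator deferoxamine mesylate at 100 μM, and the VE group received ferric citrate at 100 μM together with the antioxidant VITE (vitamin E) at 200 μM. Each group had 3 libraries, and the sources do not say whether they came from separate animals or cultures. The p-values therefore measure the spread between these libraries, which may be technical. The iron load is thus shared by 9 of the 12 libraries, and no group received the chelator or vitamin E alone.

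miR-221 and miR-222 are made from neighbouring hairpins on the X chromosome that are transcribed together as a single primary transcript. Each hairpin gives a 3p and a 5p arm, of which the 3p arm is usually the abundant guide strand. The 3p arms share a seed, the bases that pair with target mRNAs, and are best known for repressing Cdkn1b, which encodes the cell cycle inhibitor p27, and Kit, the receptor on the oocyte for the Kit ligand that granulosa cells make.

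The mature sequences of 3 of the 4 entries were found in RefSeq's table for GRCm38.p6 and are shown because the seed and the rest of the strand decide which entries can share targets and which can share reads. Capitals mark the seed, bases 2 to 8 from the 5′ end.
mmu-miR-221-3p: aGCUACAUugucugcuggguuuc
mmu-miR-222-3p: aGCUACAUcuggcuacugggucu
mmu-miR-221-5p: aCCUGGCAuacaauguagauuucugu
The first 8 bases of both 3p strands were the same, and 11 of their 23 positions were identical. Their longest shared run was 8 bases, shorter than the sequenced reads of 15 to 41 bp, so no read could match both strands over its whole length without a mismatch. Against the other 1738 mature sequences of the table, the longest shared run was 10 bases for miR-221-3p, 9 for miR-222-3p and 8 for miR-221-5p. mmu-miR-1928 was the other RefSeq mature sequence with the seed of the 3p strands, and it was not among the miRNA entries with deposited counts.

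The hairpins are shown with the mature strands of the table in capitals, to place the arms whose counts are compared. Both lie on the minus strand of GRCm38.p6, Mir221 at chrX:19146294-19146388 with 95 bases and Mir222 at chrX:19146893-19146971 with 79 bases, and 504 bases separate them. In the GENCODE M21 annotation they are miRNA genes of their own, and 0 other genes overlap the region. The submitters' processing notes name the mm9 build, and the deposited counts carry no coordinates.
Mir221: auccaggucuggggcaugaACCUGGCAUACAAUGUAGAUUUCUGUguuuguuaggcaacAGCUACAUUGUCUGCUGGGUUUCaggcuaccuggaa
Mir222: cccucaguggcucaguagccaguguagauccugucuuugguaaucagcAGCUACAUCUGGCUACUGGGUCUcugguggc

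The libraries held 452021 to 7565362 miRNA counts out of totals of 22631206 to 24845945 reads. The miRNA share of the total was 2.0% to 5.0% in CON, 21.6% to 30.4% in FAC, 5.53% to 19.9% in DFO and 9.20% to 14.6% in VE. Levels are given as CPM, the miRNA counts scaled to a common library size with TMM factors, or as RPM, the reads scaled to the library total as the authors deposited them. A floor of 3 counts corresponded to 0.351 CPM at the highest depth and to 7.90 CPM at the lowest. The 5 granulosa markers that were measured summed to 951 to 3403 CPM per library, mostly miR-21a-5p, while miR-202-5p had counts in 1 library and miR-212-3p in 2. Markers of other sources were present too, with miR-122-5p, an abundant miRNA of liver and serum, at 41724 to 183380 CPM, 3 erythroid entries and the stromal miR-143-3p with miR-145a-5p. The erythroid entries summed to 29612 to 65682 CPM in CON, 7286 to 107051 in FAC, 15426 to 85822 in DFO and 89347 to 169596 in VE. The stromal pair summed to 31005 to 108755, 36927 to 66432, 23602 to 43865 and 13913 to 20722 CPM in the same order. The erythroid sums were mostly the joint entry of miR-486a-5p and miR-486b-5p, and miR-144-3p had counts in 1 library. The stromal sums were mostly miR-143-3p, with miR-145a-5p at group means of 149 to 277 CPM. Leukocyte, endothelial, epithelial and oocyte or early embryo markers summed to at most 367, 155, 129 and 42.6 CPM in a library. The part of these sources in the levels of the cluster was not tested.

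mmu-miR-221-3p was the most abundant member, and its level was highest in FAC. It stood at 187, 50.0 and 39.3 CPM in the 3 CON libraries and at 755, 879 and 224 CPM in the 3 FAC libraries. The DFO libraries had 17.9, 17.8 and 337 CPM, and the VE libraries 227, 280 and 320 CPM. All 3 FAC libraries were above all 3 CON libraries, and so were all 3 VE libraries, whereas DFO held both the lowest 2 of the 12 values and, in replicate 3, a value above that of FAC replicate 3. The group means ran from FAC (619.5 ± 348, SD, n = 3) through VE (276 ± 46.7) and DFO (124 ± 184) to CON (92.0 ± 82.2 CPM). Neighbours in that order were not separated by the test given below. By mean CPM miR-221-3p ranked 60th of 637 entries in FAC, 86th in VE, 114th in DFO and 150th in CON. In RNA pooled from many vesicles, fewer vesicles that carry a miRNA and less of it per vesicle cannot be told apart.

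In CPM mmu-miR-222-3p, the seed-sharing neighbour, was low in CON and had similar means in the 3 groups that received ferric citrate. The CON libraries had 61.4, 10.5 and 9.43 CPM, and the FAC libraries 97.7, 112 and 115 CPM. The DFO libraries had 73.4, 142 and 82.6 CPM, and the VE libraries 147, 110 and 63.8 CPM. Each of the 9 libraries with ferric citrate lay above all 3 CON libraries, by the narrowest margin for VE replicate 3 against CON replicate 1. Taken group by group, 10.1% of all tested entries lay above CON in this way in FAC, 3.84% in DFO and 8.04% in VE. How many did so in all 3 groups at once was not counted. The means were 108 ± 9.10 in FAC, 107 ± 41.8 in VE, 99.2 ± 37.1 in DFO and 27.1 ± 29.7 CPM in CON (SD, n = 3), and FAC, VE and DFO were not separated from one another by the test. In RPM the means were 30.5 in FAC, 15.1 in DFO, 11.4 in VE and 1.17 in CON. CON replicates 2 and 3 rested on 4 and 6 counts, close to the floor of 3 counts.

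**Figure D1:**
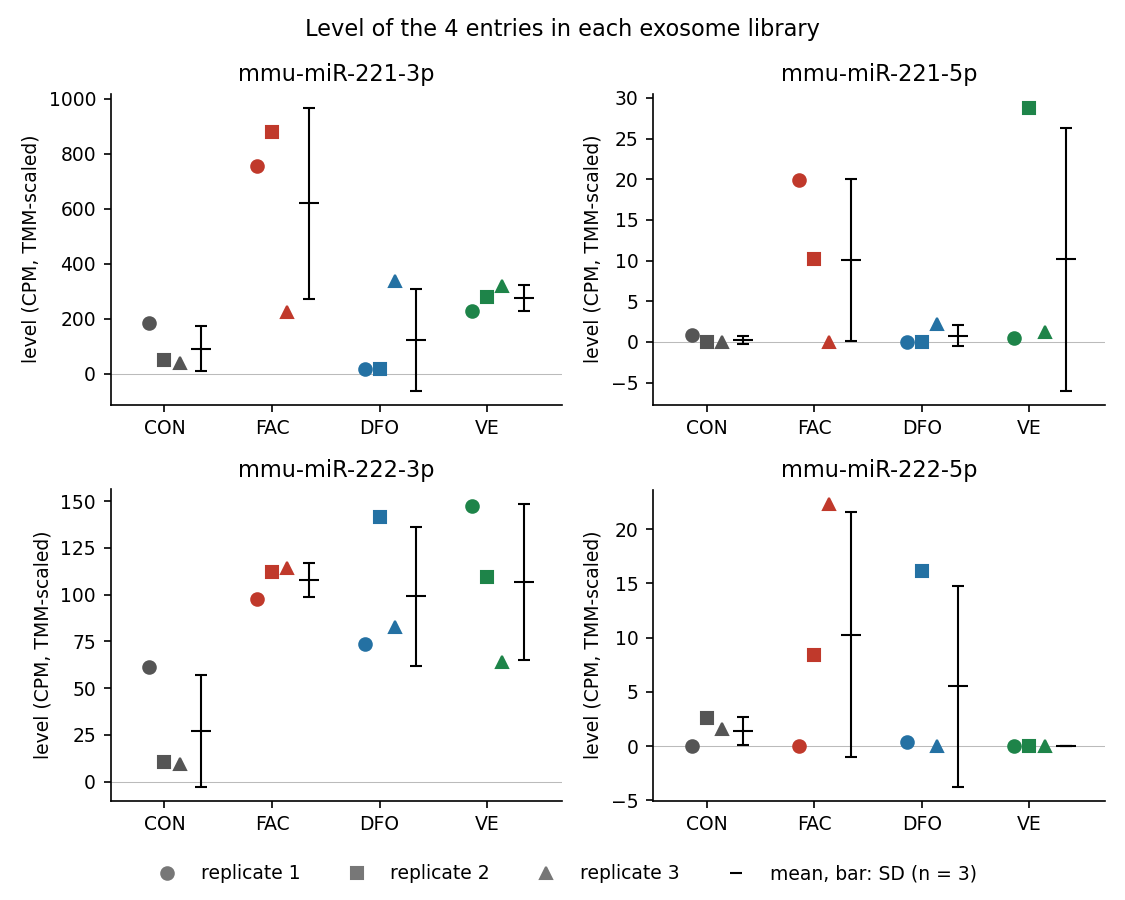
Level in CPM (vertical axis, linear) of each of the 4 entries in the 12 libraries, with replicates as symbols and the mean with its SD as a black bar (n = 3). For mmu-miR-222-3p the 9 libraries with ferric citrate lie between 63.8 and 147 CPM and CON between 9.43 and 61.4, whereas for mmu-miR-221-3p the DFO libraries span 17.8 to 337 CPM.

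The 5p arms were near or under the floor in most libraries. mmu-miR-221-5p had 1, 0 and 0 counts in CON, 170, 76 and 0 in FAC, 0, 0 and 3 in DFO and 1, 79 and 4 in VE. More than 3 counts were thus found in FAC replicates 1 and 2 and in VE replicates 2 and 3. mmu-miR-222-5p had 0, 1 and 1 counts in CON, 0, 63 and 110 in FAC, 1, 90 and 0 in DFO and 0 in all 3 VE libraries. It was above the floor in FAC replicates 2 and 3 and in DFO replicate 2. For both 5p arms each group with counts above the floor also held a library at 0 or at 1 count, so the libraries of these groups overlapped with those of CON.

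Ferric citrate against no addition (FAC against CON) addressed which miRNAs differ with the iron load. An entry was called when it was past the study's threshold, 1.5-fold with p below 0.05, read here as an unadjusted p. Of the 4 members, 1 was past it, miR-221-3p, and 9.51% of all 547 tested entries were. In edgeR's quasi-likelihood test its log2 fold change was 2.74 (SE 1.07, unadjusted p = 0.0101, adjusted p = 0.212 over all tested entries). miR-221-3p is among the miRNAs that the study chose on these libraries, so its call here is not independent evidence. For miR-222-3p the log2 fold change was 1.98 (SE 1.46, adjusted p = 0.607), with a 95% interval, from the estimate and its SE, of -0.88 to 4.83. All FAC libraries were above all CON libraries in CPM for both 3p arms, and this held for 10.1% of the tested entries. In RPM both 3p arms again lay higher in all FAC libraries, and 31.4% of the entries did. The ratio of the group means was 6.73 in CPM and 51.3 in RPM for miR-221-3p, and 3.98 and 26.0 for miR-222-3p. The miRNA share of the library total, given above, was also higher in every FAC library than in every CON library. By definition a value in RPM is the value in CPM times the TMM factor and this share, so the RPM ratios include that difference. The source of the difference in miRNA share was not tested. With library read totals as the scale, the log2 fold change was 5.68 for miR-221-3p (adjusted p = 0.000268) and 4.69 for miR-222-3p (adjusted p = 0.0326), while the median over all tested entries moved from 1.38 to 4.35. Relative to that median, the values were 1.37 and 0.60 log2 units above it on the miRNA scale and 1.33 and 0.34 above it on the scale of library totals. Against DFO and VE, where the median of all entries is also above 0 in FAC, miR-222-3p lay at -0.54 and -0.61 log2 units from that median. An entry could pass the filter on summed counts through the FAC libraries alone. The CON libraries detected 266 to 284 entries and the FAC libraries 299 to 475. The median of all tested entries is therefore not a neutral baseline for well-counted miRNAs. The split of all calls also moved with the scale, from 13 higher and 39 lower to 159 higher and 0 lower. Without CON replicate 1, miR-222-3p passed the threshold as well (log2 fold change 3.43, adjusted p = 0.449).

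For the 5p arms, the summed counts per summed scaled total were 26.3 times higher in FAC than in CON for miR-221-5p (246 against 1 count, 95% interval of the counting error 4.67 to 1042). For miR-222-5p the ratio was 9.23 (173 against 2 counts, interval 2.52 to 76.9). Neither passed the threshold in edgeR's test, and both limma fits on log2 RPM called miR-221-5p. Those 2 fits called 195 and 203 of the 547 tested entries. These intervals leave out the spread between libraries, in which FAC replicate 3 had 0 counts of miR-221-5p and FAC replicate 1 had 0 of miR-222-5p.

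**Figure D2:**
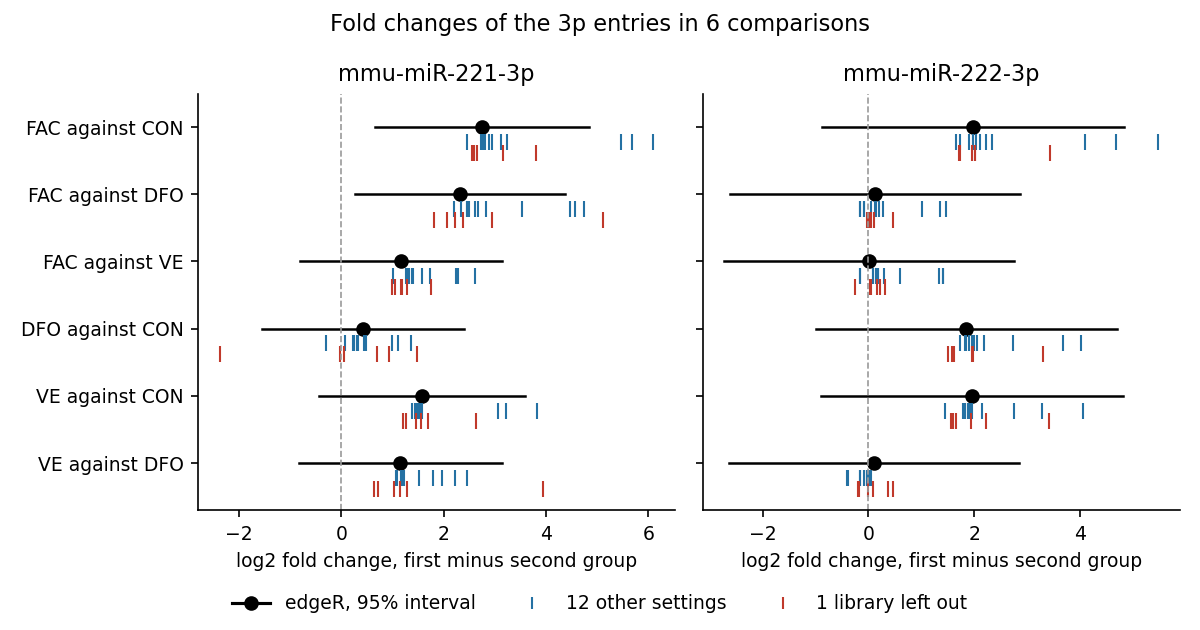
Log2 fold change (horizontal axis, first minus second group) of both 3p entries in 6 comparisons. Black points are edgeR estimates with 95% intervals, blue ticks are 12 other settings and red ticks are fits with 1 library left out. The interval of mmu-miR-221-3p lies above 0 for FAC against CON and FAC against DFO, and all 6 intervals of mmu-miR-222-3p span 0.

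For the chelator added to the iron load (FAC against DFO), miR-221-3p was past the threshold, 1 of the 4 members, beside 12.2% of all tested entries. Its log2 fold change was 2.32, higher in FAC (SE 1.05, unadjusted p = 0.0267, adjusted p = 0.317 in edgeR's test), with 8 of 9 pairs of a FAC and a DFO library higher in FAC. The study chose miR-221-3p on this comparison too, so its call here is not independent evidence. miR-222-3p had a log2 fold change of 0.12 (SE 1.40, adjusted p = 0.993), with a 95% interval of -2.62 to 2.87 that leaves wide room for a change either way. With 1 library left out in edgeR, the unadjusted p of miR-221-3p no longer met 0.05 without FAC replicate 1 (log2 fold change 2.37, unadjusted p = 0.0534, adjusted p = 0.616) or FAC replicate 2 (2.23, 0.0658, 0.495). The same held without DFO replicate 1 (2.06, unadjusted p = 0.0799, adjusted p = 0.565) or DFO replicate 2 (1.80, 0.125, 0.60) in edgeR. Without DFO replicate 3, the library with 337 CPM, the log2 fold change was 5.12 (adjusted p = 0.0209). miR-221-5p was 38.4 times higher in the summed counts of FAC than of DFO (246 against 3 counts, counting interval 13.0 to 188). edgeR did not call it, and both limma fits on log2 RPM did, beside 124 and 127 of the 547 tested entries.

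Vitamin E added to the iron load (FAC against VE) left 0 of the 4 members past the threshold in edgeR's test, also at an unadjusted p under 0.05 alone, and 9.32% of all tested entries passed. The study chose miR-221-3p on this comparison too, so calls of it here are not independent evidence. miR-221-3p had a log2 fold change of 1.17 (SE 1.01, adjusted p = 0.548), with FAC higher in 6 of 9 pairs of libraries. It was past the threshold with library read totals (log2 fold change 2.61, adjusted p = 0.269), in limma on log2(RPM + 1) (2.25, adjusted p = 0.214), in the edgeR fit of the 2 groups alone (1.41, adjusted p = 0.287) and with each count divided by the lowest mode of its library, defined below (1.74, adjusted p = 0.18), and not in DESeq2 (1.29, adjusted p = 0.535). Of all entries tested in each, these settings called 81, 113, 67, 62 and 60 in the order named. In RPM the FAC libraries of miR-221-3p, from 45.0 to 273, were all above its VE libraries, from 20.8 to 42.0. In CPM its FAC replicate 3, at 224, was under all 3 VE libraries. The miRNA share of the library total was also higher in every FAC library than in every VE library. How many of all tested entries were separated in RPM between FAC and VE was not counted. The joint erythroid entry of miR-486a-5p and miR-486b-5p was lower in FAC than in VE (log2 fold change -1.67, adjusted p = 0.00453 in edgeR's test), and its part was not tested. miR-222-3p had a log2 fold change of 0.02 (SE 1.40, adjusted p = 1.00), with a 95% interval of -2.73 to 2.76 that leaves wide room for a change either way. In RPM its FAC libraries, from 23.0 to 34.8, were all above its VE libraries, from 8.37 to 13.5, with the same limit as for miR-221-3p. miR-222-5p, with 0 counts in VE, was at least 9.07-fold higher in the FAC mean when VE was set at a floor of 3 counts per library. FAC replicate 1 also had 0 counts, and FAC was higher in 6 of 9 pairs. DESeq2, library read totals, the filterByExpr filter and limma on log2(RPM + 0.1) called this entry, while the edgeR fit did not (adjusted p = 0.521). Of all entries tested in each, these settings called 60, 81, 36 and 97 in the order named.

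The 3 groups with ferric citrate share the CON libraries in their comparisons with it, so the members' values are set side by side here. Of the 4 members, 0 passed the threshold in edgeR's test in DFO against CON, where 7.68% of the entries did, and 0 in VE against CON, where 10.4% did. miR-221-3p had a log2 fold change of 2.74 in FAC, 1.58 (SE 1.02, adjusted p = 0.533) in VE and 0.42 (SE 1.00, adjusted p = 0.989) in DFO, each against CON in edgeR's test. miR-222-3p had 1.98, 1.96 (SE 1.46, adjusted p = 0.610) and 1.85 (SE 1.45, adjusted p = 0.693). The estimates for miR-221-3p were thus ordered FAC, VE and DFO, whereas the 3 for miR-222-3p lay between 1.85 and 1.98. All DFO libraries were above all CON libraries for 1 member, miR-222-3p, and for 3.84% of the entries. In VE against CON the joint entry of miR-486a-5p and miR-486b-5p, erythroid markers, was higher in VE (log2 fold change 1.57, adjusted p = 0.00821) and the stromal miR-143-3p lower (-1.95, adjusted p = 0.00103) in edgeR's test, and their part in the VE values of the cluster was not tested. The other stromal marker, miR-145a-5p, had a log2 fold change of -0.69 (adjusted p = 0.920) in that test. All VE libraries were above all CON libraries for both 3p arms and for 8.04% of the entries. DESeq2, library read totals and both limma fits called miR-222-3p in both comparisons, and library read totals and both limma fits called miR-221-3p in VE against CON. These settings called 51 to 93 of the 547 tested entries in DFO against CON and 65 to 118 in VE against CON. In DESeq2 miR-222-3p had adjusted p = 0.0975 for DFO and 0.0994 for VE. Set against the median of all tested entries, miR-221-3p in DFO against CON stood at 0.42 on the miRNA scale and at -0.34 on the scale of library totals, where the median was 1.45. DFO against CON changed direction for miR-221-3p without DFO replicate 3, with a log2 fold change of -2.37 (adjusted p = 0.594), which is past the threshold on its unadjusted p. Without CON replicate 1, miR-221-3p passed the threshold in VE against CON (log2 fold change 2.63, adjusted p = 0.403).

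Between vitamin E and the chelator under the same iron load (VE against DFO), 0 of the 4 members passed the threshold in edgeR's test, beside 11.9% of all tested entries. Under other settings, miR-222-5p was past it in DESeq2, with library read totals and with the filterByExpr filter, and miR-221-3p in limma on log2(RPM + 1) and with the counts divided by the lowest mode. Of all entries tested in each, these settings called 75, 53, 59, 46 and 47 in the order named. miR-221-3p had a log2 fold change of 1.15 (SE 1.01, adjusted p = 0.690 in edgeR's test), with VE higher in 6 of 9 pairs. The joint erythroid entry was higher in VE (log2 fold change 1.55, adjusted p = 0.0109 in edgeR's test), and its part was not tested. Without DFO replicate 3 miR-221-3p was past the threshold, with a log2 fold change of 3.95 (adjusted p = 0.118). miR-222-3p had a log2 fold change of 0.11 (SE 1.40, adjusted p = 1.00) that took the other sign in 12 of 18 other settings. miR-221-5p had 84 counts in VE and 3 in DFO, a ratio of 33.8 (counting interval 11.2 to 167), of which 79 counts lay in VE replicate 2. miR-222-5p was at least 4.86-fold higher in DFO against a floor of 3 counts per VE library, and 90 of its 91 DFO counts lay in replicate 2.

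An exact permutation test over all 369600 assignments of the 12 libraries to 4 groups of 3 used the share of the variance of log2 CPM that lies between groups. That share was 70.1% for miR-222-3p (exact p = 0.0252, adjusted p = 0.313) and 57.9% for miR-221-3p (exact p = 0.0747, adjusted p = 0.459). It was 33.6% for miR-221-5p (exact p = 0.318) and 31.0% for miR-222-5p (exact p = 0.365). Of the 4 members, 1 was thus under an unadjusted p of 0.05, beside 11.5% of all tested entries, and 0 entries had an adjusted p under 0.05. On log2(RPM + 1) the shares were 81.1% for miR-221-3p (exact p = 0.00247, adjusted p = 0.0533) and 81.5% for miR-222-3p (exact p = 0.0037, adjusted p = 0.0553). How many of all tested entries were under an unadjusted p of 0.05 on that scale was not counted, so the rise cannot be read as particular to these members.

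**Figure D3:**
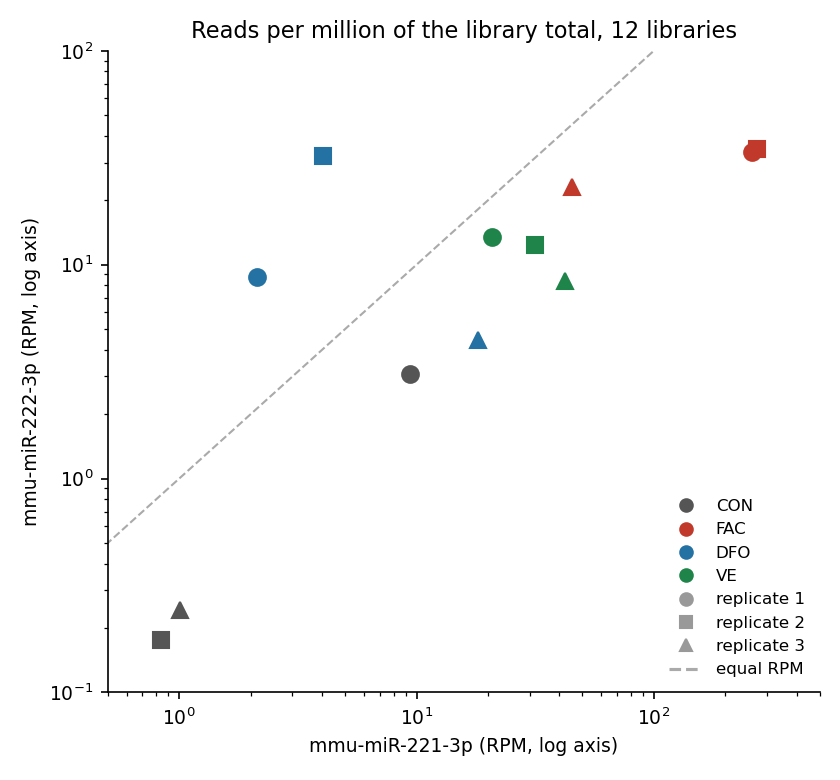
Deposited RPM of mmu-miR-222-3p against mmu-miR-221-3p on log axes, 1 point per library with colour for the group and symbol for the replicate. DFO replicates 1 and 2 are the 2 points above the dashed line of equal RPM, and the 3 FAC libraries have the 3 highest values of mmu-miR-221-3p, from 45.0 to 273 RPM.

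The ratio of miR-222-3p to miR-221-3p does not depend on how a library is scaled. It was 0.329, 0.211 and 0.240 in CON and 0.129, 0.127 and 0.511 in FAC. In DFO it was 4.10, 7.98 and 0.245, and in VE 0.648, 0.392 and 0.199. miR-221-3p had more counts than miR-222-3p in 10 of the 12 libraries, and DFO replicates 1 and 2 were the other 2. In these, miR-222-3p made up 80.4% (exact 95% binomial interval 75.1 to 85.0) and 88.9% (86.6 to 90.9) of the 3p counts of the cluster, against 19.7% (16.5 to 23.2) in DFO replicate 3. Such intervals describe counting alone, because reads copied in amplification do not stand for separate molecules. The mean log2 ratio was -1.90 ± 0.27 in CON, -2.30 ± 1.15 in FAC, 1.00 ± 2.66 in DFO and -1.43 ± 0.85 in VE (SD, n = 3). Between groups lay 51.7% of its variance (exact permutation test over 4 groups, p = 0.0998), a difference not larger than the spread between replicates at 0.05. The DFO group decided this value: without DFO replicate 3 the share was 87.4% (exact p = 0.00838), and without DFO replicate 2 it was 35.6% (exact p = 0.339). Whether miR-221-3p and miR-222-3p differed in their response to any single treatment was not tested beyond this.

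**Figure D4:**
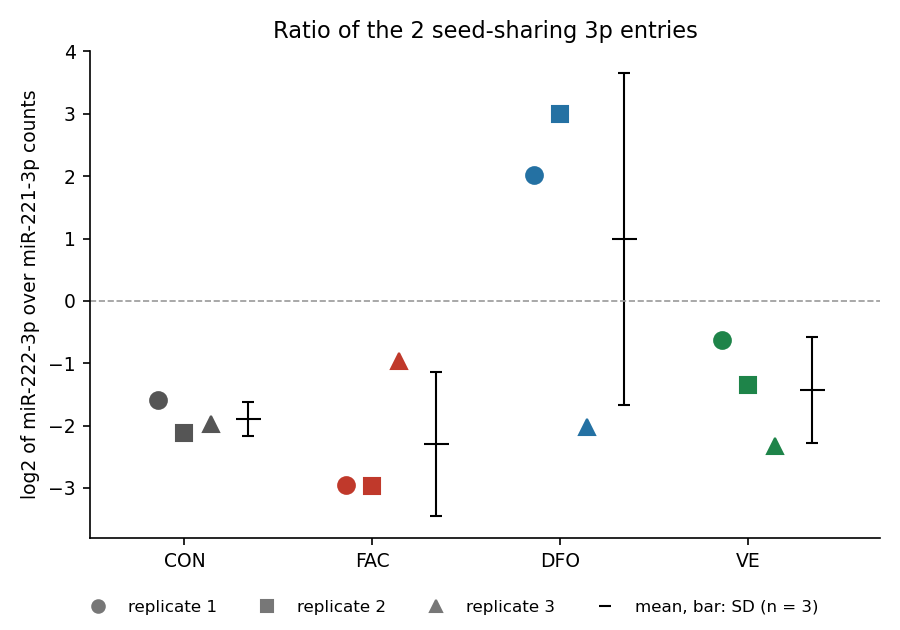
Log2 of the ratio of mmu-miR-222-3p to mmu-miR-221-3p counts, with 0.5 counts added to each, in the 12 libraries, and the mean with its SD per group (n = 3). DFO replicates 1 and 2 lie above 0, where miR-222-3p is the more abundant, and the other 10 libraries lie below it.

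The SD of this log2 ratio over the 12 libraries was 1.86. Among other pairs of miRNAs from neighbouring hairpins it was 0.45 for miR-182-5p with miR-183-5p, 1.10 for miR-23a-3p with miR-27a-3p, 1.80 for miR-143-3p with miR-145a-5p and 2.01 for miR-23b-3p with miR-27b-3p. It was 3.19 for miR-106b-5p with miR-93-5p and 3.54 for miR-17-5p with miR-20a-5p, pairs in which a member had 0 counts in some library. Over all 12403 pairs of the 158 entries with counts in every library the median SD was 1.97, and 55.0% of the pairs had a larger SD than miR-221-3p with miR-222-3p. The ratio within the cluster thus varied about as much over the libraries as that of a middling pair of detected entries, and the other pairs of neighbours lay both below and above it.

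As a description over the 12 libraries, log2 CPM of miR-221-3p and miR-222-3p correlated with Pearson r = 0.39 and Spearman rho = 0.20. By Pearson r miR-222-3p ranked 91st of the 302 entries set against miR-221-3p. The 5 entries most like miR-221-3p were miR-25-3p (r = 0.87), miR-23a-3p (0.85), miR-181d-5p (0.82), miR-99a-5p (0.80) and miR-7a-5p (0.79). All 5 had a higher mean CPM in FAC and in VE than in CON and DFO, as miR-221-3p did, for example miR-23a-3p with means of 1360 in FAC, 521 in VE, 216 in DFO and 239 CPM in CON. The 5 most like miR-222-3p were miR-34c-3p (r = 0.88), miR-140-3p (0.84), miR-339-5p (0.81), miR-434-3p (0.79) and miR-1199-5p (0.74). All 5 had their lowest mean in CON, for example miR-34c-3p with 56.9 in CON against 205 in FAC, 122 in DFO and 114 CPM in VE. For miR-339-5p and miR-434-3p Spearman rho was only 0.34 and 0.20. The points share libraries and depth, and the 5 names were picked for their likeness.

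The 5p arm was the minor arm of both hairpins. Over the 12 libraries miR-221-5p made up 1.89% of the 17632 counts of its hairpin and miR-222-5p 5.87% of the 4531 counts of its own. For miR-221 the share was highest in VE replicate 2, at 9.33% (exact 95% interval 7.45 to 11.5), and was 2.57% (2.20 to 2.98) and 1.14% (0.900 to 1.43) in FAC replicates 1 and 2. In FAC replicate 3, 0 of 1104 counts were 5p, which allows a share of up to 0.272% when a count of 0 is set at the floor of 3 counts. For miR-222 it was 16.3% (13.6 to 19.3) in FAC replicate 3, 10.2% (8.30 to 12.4) in DFO replicate 2 and 6.98% (5.41 to 8.85) in FAC replicate 2. It was 0 of 834 counts in FAC replicate 1, which allows up to 0.360% by the same floor, and 0 of 326, 301 and 203 counts in the VE libraries, which allow up to 0.920%, 0.997% and 1.48%. Among the FAC libraries, replicate 3 had the highest share of miR-222-5p and no count of miR-221-5p, while replicate 1 had the reverse.

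**Figure D5:**
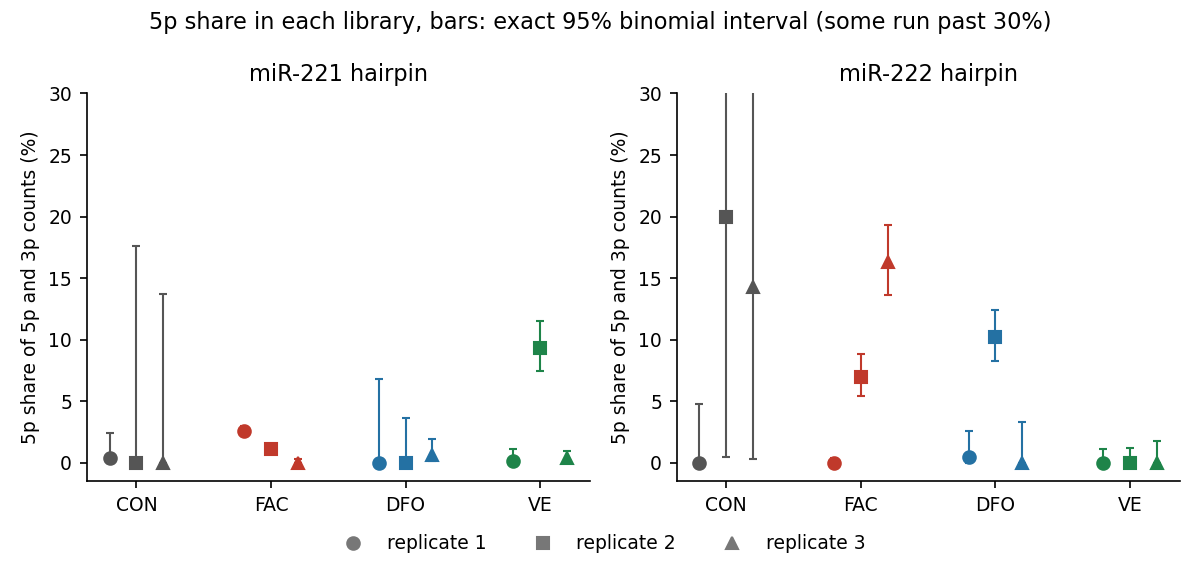
Share of the 5p arm among the 5p and 3p counts of each hairpin, in percent, per library, with exact 95% binomial intervals. The intervals of CON replicates 2 and 3 for miR-222 run past the axis because they rest on 5 and 7 counts, and among libraries with more counts the highest shares are 16.3% for miR-222 in FAC replicate 3 and 9.33% for miR-221 in VE replicate 2.

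Several counts lay far under the lowest mode of their library. This was taken as the tallest peak of the distribution of log2 counts between 10 and 500, and it was at 20.3 to 198 counts. miR-222-3p was at 0.0342 and 0.0303 of that mode in CON replicates 2 and 3, and miR-221-3p at 0.163 and 0.126. In FAC replicate 2 miR-221-3p was at 325 times the mode and miR-222-3p at 41.4 times. With each count divided by the mode of its library and rounded, miR-221-3p had a log2 fold change of 3.23 in FAC against CON (adjusted p = 0.0262) and of 3.52 in FAC against DFO (adjusted p = 0.000747) in edgeR's test. This setting called 69 and 105 of the 530 entries tested in it. The mode did not follow depth, with 20.3 in FAC replicate 2 at 5219420 miRNA counts and 117 in CON replicate 2 at 452021.

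Other miRNAs known to target the same genes were read from lists chosen by name. Of 6 miRNAs known for targeting Kit, 5 were measured, at mean levels of 0.664 to 13.8 CPM over the 12 libraries. Each of the 5 had a mean at or under the floor in at least 1 group, so no list median is given. In FAC against CON, FAC against DFO and DFO against CON 0 of the 5 passed the threshold in edgeR's test, beside 9.51%, 12.2% and 7.68% of all tested entries. miR-193b-3p was past it in FAC against VE and in VE against DFO (adjusted p = 0.344 and 0.391), with 38.8 ± 32.7 CPM in FAC, 10.99 ± 18.7 in DFO, 3.60 ± 2.42 in CON and 0 counts in VE. Set at the floor of VE, it was at least 34.3-fold higher in FAC and at least 9.72-fold higher in DFO. miR-34a-5p was past the threshold in VE against CON (adjusted p = 0.460), with 38.3 ± 64.0 CPM in CON and 0.15 ± 0.26 in VE. Of all tested entries, 9.32% were past it in FAC against VE, 11.9% in VE against DFO and 10.4% in VE against CON.

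All 5 miRNAs of the list known for targeting Cdkn1b were measured, at mean levels of 43.0 to 84193 CPM. In FAC against CON 0 of 5 passed the threshold, and the median log2 fold change was 0.98 beside 1.38 over all tested entries. Medians over all tested entries have the limit of the count filter given above. In FAC against DFO 2 of 5 were higher in FAC, where 26 of the 547 tested entries were called higher, and the median was 1.10 beside 0.66. These were miR-148a-3p, with 135146 ± 72675 CPM in FAC and 32552 ± 11733 in DFO (log2 fold change 2.05, SE 0.38, adjusted p = 3.26e-05), and miR-24-3p, with 3510 ± 1352 and 911 ± 160 CPM (log2 fold change 1.95, SE 0.67, adjusted p = 0.125). miR-148a-3p was also past the threshold in FAC against VE (adjusted p = 0.520), lower in DFO than in CON (adjusted p = 0.0401) and higher in VE than in DFO (adjusted p = 0.0363). miR-148b-3p, miR-152-3p and miR-196a-5p were past the threshold in 0 of the 6 comparisons. In VE against CON 0 of 5 passed. Of all tested entries, 9.51% passed in FAC against CON, 12.2% in FAC against DFO and 9.32% in FAC against VE. The shares were 7.68% in DFO against CON, 10.4% in VE against CON and 11.9% in VE against DFO.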

How the data were processed

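Per the labels, exosomal RNA was isolated with the exoEasy Maxi kit and sequenced on an Illumina HiSeq. For each library the authors deposited raw counts per miRNA entry and the same values as RPM. The aligner, the miRNA database and the reads that make up the library total are not given in the sources used here, and the build mm9 is named in the submitters' processing notes. The total was recovered as count divided by RPM. Counts were tested with edgeR 4.0.16 (quasi-likelihood, TMM, all 4 groups in 1 fit, R 4.3.3), with Benjamini-Hochberg adjustment over the 547 entries that had at least 10 counts over 12 libraries. The common biological coefficient of variation was 1.57. CPM used the TMM-scaled miRNA totals, log2 CPM a prior count of 2 and the ratio 0.5 added counts. Alternatives were DESeq2 1.42.0, limma 3.58.1 on log2(RPM + 1) or log2(RPM + 0.1), RLE factors, miRNA or library totals, other filters, 2-group fits, thinning to 452021 counts, division by the lowest mode, a replicate block and leaving out each library. The scripts were tested on simulated data.

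Described were the 4 members, the 5 entries most like each 3p arm by Pearson r among those with counts in at least 6 libraries, seed sharers, pairs from neighbouring hairpins, and lists of miRNAs known to target Kit or Cdkn1b. The members and lists were chosen with earlier results of these data known. Libraries that share a replicate number were no more alike than others in the check given below, which cannot exclude a shared animal or culture. No 2 libraries agreed within sampling noise (chi-square per degree of freedom of at least 102 over 66 pairs). Sequences were taken from RefSeq's table for GRCm38.p6 by name.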

Additional observations from a re-analysis of the deposited data

How the results depend on the processing

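The number of the 4 members past the threshold in FAC against CON was 1 in edgeR, 2 with library read totals, 2 in DESeq2 and 3 in limma on log2(RPM + 1) or log2(RPM + 0.1). In FAC against DFO it was 1, and 2 in both limma fits. In FAC against VE it was 0, against 2 with library read totals and 1 each in DESeq2, both limma fits, the filterByExpr filter, the 2-group fit and the counts divided by the lowest mode. In DFO against CON it was 0, against 1 each with library read totals, DESeq2 and both limma fits. In VE against CON it was 0, against 2 with library read totals and in both limma fits and 1 in DESeq2. In VE against DFO it was 0, against 1 each with library read totals, DESeq2, limma on log2(RPM + 1), filterByExpr and the lowest mode. With each library left out in turn, the number ran from 1 to 2 in FAC against CON, was 0 throughout in FAC against VE and ran from 0 to 1 in the other 4 comparisons. In FAC against CON library read totals called 159 of all 547 tested entries, DESeq2 72 and the limma fits 195 and 203, against 52 in edgeR. The fits on RPM or library totals called more entries than edgeR in every comparison except VE against DFO, as given below. The causes were not tested.

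miR-221-3p kept its direction in FAC against CON and FAC against DFO under all 18 alternatives of each, at log2 fold changes of 2.45 to 6.10 and 1.80 to 5.12, with adjusted p-values of 0.000268 to 0.683 and 0.000747 to 0.616. miR-222-3p kept its direction against CON in all 3 comparisons. Its FAC against DFO value of 0.12 turned to -0.0778 with RLE factors, -0.0799 in DESeq2, -0.165 with filterByExpr and -0.157 with thinned counts, and ran from -0.0253 to 0.47 with a library left out. Its FAC against VE value of 0.02 turned to -0.16 with filterByExpr and -0.17 with thinned counts, and ran from -0.25 to 0.32 with a library left out. Its VE against DFO value of 0.11 turned to -0.16 with RLE factors and in DESeq2, -0.0286 with total miRNA counts, -0.0269 without a filter, -0.40 with library read totals, -0.0063 with filterByExpr, -0.0832 in the 2-group fit, -0.0322 with the replicate block and -0.39 with the lowest mode, and ran from -0.19 to 0.46 with a library left out. miR-221-3p in DFO against CON turned from 0.42 to -0.29 with the lowest mode, and ran from -2.37 to 1.47 with a library left out.

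As a check of the pairing, each library's deviations from its group mean were set against those of libraries in other groups: r averaged 0.0042 for 18 pairs sharing a replicate number and -0.0020 for 36 pairs that did not. With the replicate block, 0 of the member counts changed, and miR-221-3p had a log2 fold change of 2.89 in FAC against CON (adjusted p = 0.316). The variance between groups rose from 57.9% to 81.1% for miR-221-3p on log2(RPM + 1). Its change over all tested entries on that scale was not summarised. For the ratio the variance between groups ran from 35.6% to 87.4% with a library left out.

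Over all tested entries, the numbers past the threshold were 52, 67, 51, 42, 57 and 65 in FAC against CON, FAC against DFO, FAC against VE, DFO against CON, VE against CON and VE against DFO. In the 3 fits on RPM or library totals they ran from 159 to 203, 75 to 127, 81 to 113, 73 to 93, 92 to 118 and 39 to 53. In the 9 other alternatives with all libraries they ran from 36 to 72, 54 to 105, 28 to 67, 23 to 51, 24 to 65 and 36 to 75. With a library left out they ran from 33 to 63, 41 to 69, 25 to 61, 27 to 40, 32 to 52 and 41 to 59. The depth of CON replicates 2 and 3 limits the 3p ratios there to 23 and 31 counts, and the 5p arms could not be told from 0 in most libraries. Groups of 3 libraries were too small for the check for outlying libraries.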
